A study of Mus musculus with 4 samples.

Results

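The replication-dependent histone genes encode the bulk of the linker histone H1 and of the core histones H2A, H2B, H3 and H4 that package newly copied DNA. They were measured here in mouse bone marrow on 4 Affymetrix arrays, 1 each for cisplatin, astragalus, electro-acupuncture and control. Members were the genes with platform symbols of the Hist1h to Hist4h type or their current RefSeq forms, read from transcript clusters (the array's unit for a gene) that list 1 gene. This gave 27 genes out of 30702 named genes, 5 for H1, 9 for H2A, 8 for H2B, 3 for H3 and 2 for H4. A further 36 clusters list several histone genes each and are described separately, since their values cannot be given to 1 gene. Some members, such as Hist1h3c and Hist1h4a, are listed in those clusters too. Over all clusters 67 histone genes appear on the platform, so most of the family is seen only in groups. No member of the Hist3 or Hist4 loci had a cluster of its own.

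Cisplatin is a platinum drug that crosslinks DNA. Astragalus membranaceus is a root used in Chinese medicine, and electro-acupuncture passes current through needles. The labels place marrow collection from the tibias after 2 weeks of treatment and RNA labelling from 6 ug of total RNA. Per the series design, 6 marrow samples were pooled before extraction, presumably in each group, though this is not spelled out. Strain, age and doses are not stated in the labels, nor is what the control mice received, nor whether the astragalus and electro-acupuncture mice also had cisplatin. Each of these arrays is therefore set against both the control and the cisplatin array. With 1 array of pooled marrow per group there is no replicate check, and nothing below was tested. A difference is a log2 difference between 2 arrays, and genes are counted by size, at 2-fold (a log2 difference of 1).

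Histone genes of this kind are transcribed mainly in S phase, when DNA is copied, and their mRNAs end in a stem-loop in place of a poly(A) tail. NPAT switches the genes on under cyclin E and CDK2, and SLBP with the U7 small nuclear ribonucleoprotein forms and guards the mRNA ends. Bone marrow holds many dividing blood cell precursors. The labels do not say whether RNA labelling was primed from poly(A) tails.

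The arrays carried the defining genes of marrow. All 10 neutrophil markers and the 9 measured of 10 erythroid markers were above the floor, the median over all clusters of the mean log2 level, 5.235. Of the 7 measured skeletal muscle markers 4 were above it, all at a log2 level under 6 on every array. The astragalus array spread wider than the others. Its 5th and 95th percentiles lay 7.20 apart, against 6.83 on the cisplatin, 6.80 on the electro-acupuncture and 6.81 on the control array. In total 26 of the 27 histone genes and 17195 of all genes reached the floor.

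The upstream sequences of 7 members are shown because these genes span the family's behaviour, from the largest differences to the flattest profile. Each line gives the 150 bases before the RefSeq transcription start on assembly GRCm38.p6, 5′ to 3′ on the gene's own strand. Capitals mark 4 motifs on either strand. The first is TATAAA, a core promoter element. Another is the pentamer CCAAT, common upstream of vertebrate histone genes. The octamer ATTTGCAT is bound by the factor Oct-1 in H2B promoters. Last is AAACACA, known from H1 promoters.
Hist1h1c (chr13:23738657-23738806, plus strand): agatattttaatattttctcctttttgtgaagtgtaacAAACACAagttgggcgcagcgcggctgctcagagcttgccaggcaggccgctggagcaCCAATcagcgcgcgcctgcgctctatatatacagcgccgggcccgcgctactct
Hist1h2ak (chr13:21753913-21754062, minus strand): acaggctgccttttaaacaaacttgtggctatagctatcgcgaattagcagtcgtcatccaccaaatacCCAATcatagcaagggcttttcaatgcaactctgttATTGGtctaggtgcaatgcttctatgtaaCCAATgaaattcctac
Hist1h1b (chr13:21780626-21780775, minus strand): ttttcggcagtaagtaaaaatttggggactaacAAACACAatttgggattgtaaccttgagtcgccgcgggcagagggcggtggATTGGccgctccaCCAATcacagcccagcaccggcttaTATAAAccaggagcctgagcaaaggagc
H2ac20 (chr3:96220881-96221030, minus strand): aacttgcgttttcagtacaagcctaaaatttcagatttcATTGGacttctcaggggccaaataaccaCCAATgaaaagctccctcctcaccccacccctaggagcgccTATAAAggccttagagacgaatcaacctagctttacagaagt
Hist1h2bk (chr13:22035671-22035820, plus strand): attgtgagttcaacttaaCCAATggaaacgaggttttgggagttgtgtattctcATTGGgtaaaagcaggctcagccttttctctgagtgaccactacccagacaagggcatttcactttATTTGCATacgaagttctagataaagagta
Hist1h3c (chr13:23745522-23745671, minus strand): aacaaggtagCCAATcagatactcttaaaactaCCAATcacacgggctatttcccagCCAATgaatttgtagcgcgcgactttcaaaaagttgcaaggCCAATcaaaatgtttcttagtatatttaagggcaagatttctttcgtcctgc
Hist1h4a (chr13:23761250-23761399, minus strand): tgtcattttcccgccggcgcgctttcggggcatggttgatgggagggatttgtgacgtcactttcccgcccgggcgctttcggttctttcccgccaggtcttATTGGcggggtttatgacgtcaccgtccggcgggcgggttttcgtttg
Around the starts of the histone genes these letters were common. RefSeq windows of 250 bases before and 50 after the start were found for 25 of the 27 genes, and none for Hist1h3f or Hist2h2be. CCAAT on either strand lay in 24 of 25 windows, or 96.0%, against 37.4% of all 32851 promoter windows, with Hist1h4b the exception. TATAAA lay in 14, or 56.0%, against 13.6%. The octamer lay in 8, or 32.0%, against 1.74%. It was found in 5 of 7 H2B windows and 3 of 9 H2A windows, and in none of the H1, H3 or H4 windows. AAACACA lay in 7, or 28.0%, against 7.18%, and in 4 of 5 H1 windows. That motif was added after the windows had been read. None of the 4 motifs contains another, and a match is a description of letters, not a binding site. Some windows are not independent. Hist1h2ah and Hist1h2bk run in opposite directions from starts 177 bases apart and share 277 window bases, and Hist1h2ba and Hist1h2aa lie 280 bases apart and share 220. All 4 of these genes hold the octamer in their windows.

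Histone genes stood highest on the astragalus array. Of the 26 above the floor, 17 had their highest log2 level there alone, or 65.4%, against 34.5% of all genes tested. That share is not matched for level, and genes of higher level stood higher on the astragalus array in general, as given below. The cisplatin array held the highest level of 3, against 17.3% of all genes, the electro-acupuncture array of 3, against 21.8%, and the control array of 2, against 23.2%, and 1 gene was tied. None was lowest on the astragalus array alone, against 20.1% of all genes. The control array was alone the lowest for 11 of 26, or 42.3%, against 32.5% of all genes. The cisplatin array was so for 7, or 26.9%, against 21.2%, and the electro-acupuncture array for 8, or 30.8%, against 23.2%. After quantile normalization, a scaling tried on this count after its values were seen, 15 were highest on the astragalus array, or 57.7%, against 26.8% of all genes, and 1 was lowest there. In bulk marrow, fewer cells of a type and less RNA per cell cannot be told apart.

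**Figure D1:**
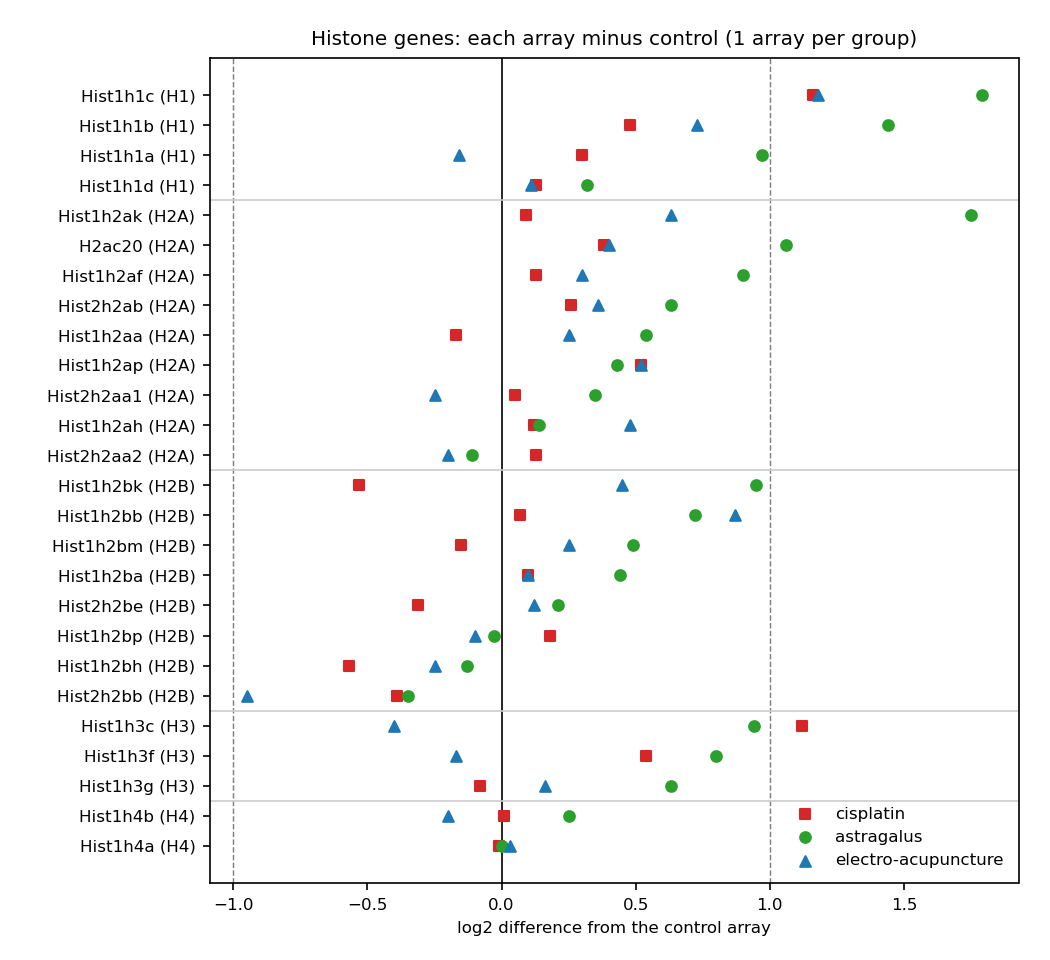
Log2 difference from the control array (horizontal axis) for each of the 26 histone genes above the floor, 1 array per group, with squares for cisplatin, circles for astragalus and triangles for electro-acupuncture. Dashed lines mark 2-fold. The circles of Hist1h1c, Hist1h1b, Hist1h2ak and H2ac20 lie beyond 2-fold, and those of Hist1h2bh, Hist1h2bp, Hist2h2bb and Hist2h2aa2 lie below 0.

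The linker histones bind DNA where it enters and leaves the nucleosome and compact the fibre. Hist1h1c (H1f2) had a log2 level of 10.66 on the cisplatin, 11.29 on the astragalus, 10.68 on the electro-acupuncture and 9.50 on the control array. All 3 treated arrays were more than 2-fold above control, by 2.23-fold, 3.46-fold and 2.27-fold in that order. Hist1h1c was the only member to differ so from control on every treated array, and the gap between cisplatin and electro-acupuncture was 0.02. Hist1h1b (H1f5) read 14.36 on the cisplatin, 15.32 on the astragalus, 14.61 on the electro-acupuncture and 13.88 on the control array. Its astragalus value was 2.71-fold above control and 1.95-fold above cisplatin. Hist1h1b therefore followed the same order of arrays as Hist1h1c, with a smaller step from control to cisplatin.

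Hist1h1a (H1f1) departed from that order, with 7.72 on the cisplatin, 8.39 on the astragalus, 7.26 on the electro-acupuncture and 7.42 on the control array. The electro-acupuncture array was its lowest, and astragalus stood 2.19-fold above it. Hist1h1d (H1f3) was the flattest H1 gene above the floor, at 5.99 on the cisplatin, 6.18 on the astragalus, 5.97 on the electro-acupuncture and 5.86 on the control array. Hist1h1t, the H1 of testis, was the 1 member below the floor, at 4.06 on the cisplatin, 4.18 on the astragalus, 3.95 on the electro-acupuncture and 3.83 on the control array. In all 4 H1 genes above the floor the astragalus array was the highest of the 4.

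H2A pairs with H2B in the nucleosome core. Hist1h2ak (H2ac15) had the widest H2A profile, with log2 levels of 10.38 on the cisplatin, 12.04 on the astragalus, 10.92 on the electro-acupuncture and 10.29 on the control array. The astragalus array was the highest. It stood 3.16-fold above cisplatin, 3.36-fold above control and 2.17-fold above electro-acupuncture, while electro-acupuncture was 1.55-fold above control and cisplatin minus control was 0.09. H2ac20 (Hist2h2ac in older naming) read 10.38 on the cisplatin, 11.06 on the astragalus, 10.40 on the electro-acupuncture and 10.00 on the control array, a 2.08-fold excess of astragalus over control. Hist1h2af (H2ac10) lay close to the top of the scale at 17.91 on the cisplatin, 18.68 on the astragalus, 18.08 on the electro-acupuncture and 17.78 on the control array. Values cannot pass 19.93, and no member reached that ceiling on any array.

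The other H2A genes differed less. Hist2h2ab had 6.95 on the cisplatin, 7.32 on the astragalus, 7.05 on the electro-acupuncture and 6.69 on the control array. Hist1h2ap had 8.60 on the cisplatin, 8.51 on the astragalus, 8.60 on the electro-acupuncture and 8.08 on the control array. All treated arrays exceeded control in both genes. Hist1h2ah was highest on the electro-acupuncture array, with 5.61 on the cisplatin, 5.63 on the astragalus, 5.97 on the electro-acupuncture and 5.49 on the control array. Hist2h2aa1 and Hist2h2aa2 are near-identical copies whose signals may mix. Hist2h2aa1 read 6.19 on the cisplatin, 6.49 on the astragalus, 5.89 on the electro-acupuncture and 6.14 on the control array. Hist2h2aa2 was the H2A gene with the narrowest range, 0.33, at 6.78 on the cisplatin, 6.54 on the astragalus, 6.45 on the electro-acupuncture and 6.65 on the control array. A cluster that lists both copies read 10.82 on the cisplatin, 10.61 on the astragalus, 10.51 on the electro-acupuncture and 10.78 on the control array. In that cluster, as in Hist2h2aa2, cisplatin was the highest array and electro-acupuncture the lowest.

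Hist1h2aa encodes TH2A, an H2A of testis. It read 6.87 on the cisplatin, 7.58 on the astragalus, 7.29 on the electro-acupuncture and 7.04 on the control array. Its neighbour Hist1h2ba, which encodes the testis H2B TH2B, read 8.62 on the cisplatin, 8.96 on the astragalus, 8.62 on the electro-acupuncture and 8.52 on the control array. Both testis genes were highest on the astragalus array, as most of the family was.

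In 4 of 8 H2B genes, Hist1h2bk, Hist1h2bm, Hist1h2bh and Hist2h2be, the cisplatin array was the lowest, against 21.2% of all genes. Over the 26 histone genes it was alone the lowest for 7, near that share. Hist1h2bk (H2bc12) read 8.87 on the cisplatin, 10.35 on the astragalus, 9.85 on the electro-acupuncture and 9.40 on the control array. The difference of cisplatin minus control was -0.53 on the log2 scale, and astragalus and electro-acupuncture were 2.79-fold and 1.97-fold above cisplatin. The minus-strand partner on its shared upstream stretch, Hist1h2ah, did not show that profile. Its log2 differences were 0.36 for electro-acupuncture minus cisplatin and 0.02 for astragalus minus cisplatin. Hist1h2ah lay near the floor of 5.235, with a mean of 5.68, so the 2 profiles are hard to compare. Hist1h2bb had 8.54 on the cisplatin, 9.19 on the astragalus, 9.34 on the electro-acupuncture and 8.47 on the control array, with electro-acupuncture the highest. Hist1h2bm, with 9.03 on the cisplatin, 9.67 on the astragalus, 9.43 on the electro-acupuncture and 9.18 on the control array, was highest with astragalus.

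Control was the highest array for 2 H2B genes. Hist1h2bh had 6.58 on the cisplatin, 7.02 on the astragalus, 6.90 on the electro-acupuncture and 7.15 on the control array. Hist2h2bb had 12.16 on the cisplatin, 12.20 on the astragalus, 11.60 on the electro-acupuncture and 12.55 on the control array, a difference of -0.95 for electro-acupuncture minus control. Both run against the family's usual order. Hist2h2be read 8.64 on the cisplatin, 9.16 on the astragalus, 9.07 on the electro-acupuncture and 8.95 on the control array. Hist1h2bp had the narrowest H2B range, 0.28, at 7.54 on the cisplatin, 7.33 on the astragalus, 7.26 on the electro-acupuncture and 7.36 on the control array. RefSeq gives these last 2 genes longer spans than the other members, 2667 bases for Hist2h2be and 14079 for Hist1h2bp, where the other members span 432 to 903.

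H3 and H4 form the tetramer at the centre of the nucleosome. Hist1h3c read 8.17 on the cisplatin, 7.99 on the astragalus, 6.65 on the electro-acupuncture and 7.05 on the control array. Cisplatin and astragalus formed a high pair and electro-acupuncture and control a low pair. Cisplatin was 2.17-fold above control, and electro-acupuncture minus cisplatin was -1.52 on the log2 scale, the largest difference below 0 of any member in any comparison. Hist1h3f split the same way, at 8.01 on the cisplatin, 8.27 on the astragalus, 7.30 on the electro-acupuncture and 7.47 on the control array. Hist1h3g, which encodes the H3.1 form of H3 where the other 2 encode H3.2, did not split so. It read 6.44 on the cisplatin, 7.15 on the astragalus, 6.68 on the electro-acupuncture and 6.52 on the control array. The 4 clusters that list only H3.2 genes, Hist1h3c and Hist1h3f among them, differed less than Hist1h3c did. These clusters spanned -0.01 to 0.55 for cisplatin minus control and -0.42 to -0.05 for electro-acupuncture minus cisplatin. Of the H4 genes, Hist1h4a held 6.44 on the cisplatin, 6.45 on the astragalus, 6.48 on the electro-acupuncture and 6.45 on the control array, a range of 0.04. Hist1h4b read 5.94 on the cisplatin, 6.18 on the astragalus, 5.73 on the electro-acupuncture and 5.93 on the control array. It had a second cluster below the floor, at 4.27 on the cisplatin, 4.17 on the astragalus, 4.67 on the electro-acupuncture and 4.54 on the control array. In that cluster electro-acupuncture was the highest array and not the lowest.

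**Figure D2:**
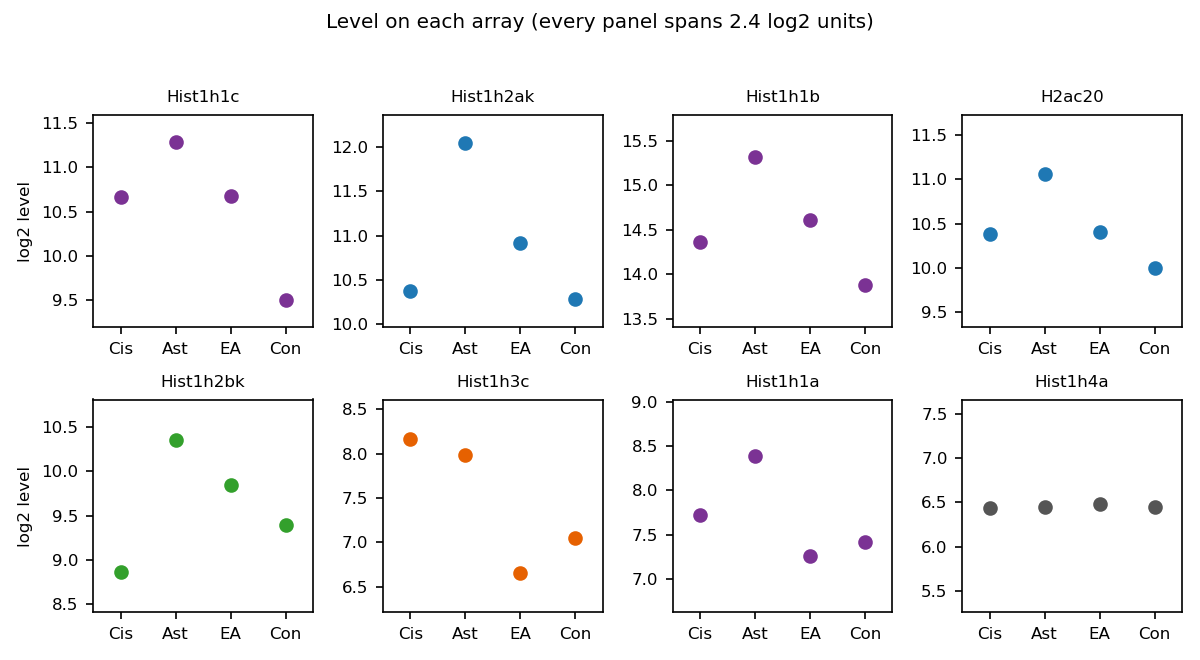
Log2 level (vertical axis) on the cisplatin (Cis), astragalus (Ast), electro-acupuncture (EA) and control (Con) arrays for 8 histone genes, 1 point per array. Every panel spans the same log2 distance, so vertical distances between points can be compared and absolute positions cannot. Hist1h2ak is highest on the astragalus array, Hist1h3c is high on the cisplatin and astragalus arrays, and Hist1h4a is flat.

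Comparison of cisplatin with control asks how the marrow histone transcripts stood after the drug. Of 26 genes 18 were higher, against 50.6% of all genes, and 8 lower, against 46.9%, with a median log2 difference of 0.11, against 0.01 over all genes. Hist1h1c and Hist1h3c were at least 2-fold higher and none was 2-fold lower, where 2.01% of all genes were called higher and 0.965% lower. By class, all 4 H1 genes (median 0.39) and 8 of 9 H2A genes (median 0.13) were higher, while 5 of 8 H2B genes were lower (median -0.23). The largest differences below control were in Hist1h2bh and Hist1h2bk, at -0.57 and -0.53. The 8 clusters that list several H2B genes went the other way, with 6 higher, 2 lower and a median of 0.27. The direction of the H1, H2A and H2B medians of single genes was kept under quantile normalization, median centring and removal of the level trend.

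Astragalus and control were further apart. The median over the 26 genes was 0.52, against 0.05 over all genes. In number 21 were higher, against 55.3% of all genes, 4 lower, against 42.8%, and Hist1h4a equal. Hist1h1c, Hist1h2ak, Hist1h1b and H2ac20 were at least 2-fold higher and none lower, against 6.14% and 2.68% of all genes. At 1.5-fold 12 of the 26 were higher, against 14.4% of all genes, and none lower, against 6.68%. With quantile normalization 11 were that much higher, and without the level trend 8, with 1 lower. As deposited, the H1 median was 1.21, H3 0.80, H2A 0.54, H2B 0.33 and H4 0.12. Without the level trend the H2B genes split evenly, 4 higher and 4 lower, with a median of 0.07. Removing that trend also put H2ac20 at 0.68 and Hist1h1b at 0.85, under 2-fold. Quantile normalization put H2ac20 at 0.81, while Hist1h1c and Hist1h2ak were beyond 2-fold under all 3 scalings.

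Electro-acupuncture and control lay closer together. The median was 0.14, against 0.04 over all genes, with 17 genes higher, against 53.7% of all genes, and 9 lower, against 44.0%. Hist1h1c was at least 2-fold higher, where 4.15% of all genes were, and no member was 2-fold lower, against 3.11%. Past 1.5-fold were 4 genes higher (Hist1h1c, Hist1h2bb, Hist1h1b and Hist1h2ak), against 11.2% of all genes, and 1 lower (Hist2h2bb), against 6.85%.

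Astragalus was also set against cisplatin, though the labels do not say whether the astragalus mice had the drug as well. Here 22 of 26 genes were higher, against 56.8% of all genes, and 4 lower, against 40.9%. The median was 0.41, against 0.06. Hist1h2ak and Hist1h2bk were at least 2-fold higher, where 2.00% of all genes were, and both were so under all 3 scalings. None was 2-fold lower, against 1.92% of all genes. At 1.5-fold 11 were higher, against 9.38% of all genes, and none lower, against 5.01%. With quantile normalization 6 were that much higher, and without the level trend 4. As deposited, the 4 genes below cisplatin were Hist2h2aa2, Hist1h2bp, Hist1h3c and Hist1h2ap, at -0.24, -0.21, -0.18 and -0.09. Class medians were 0.65 for H1, 0.48 for H2B, 0.37 for H2A, 0.26 for H3 and 0.12 for H4.

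Genes of higher level stood above cisplatin on the astragalus array in general, in 70.6% of those with a mean of at least 6.63 (the 75th percentile of all clusters). With that trend removed, 20 of 26 histone genes were above cisplatin, against 49.6% of all genes, and their median was 0.27. Median centring put the median of all genes at 0.17, and the histone median at 0.52, that is 0.34 above it. As deposited the gap was 0.35, and with quantile normalization 0.28. Against control, 67.4% of all genes with a mean of at least 6.63 were higher with astragalus, and 17 of 20 histone genes. With the trend removed 20 of 26 histone genes were above control, against 49.2% of all genes.

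**Figure D3:**
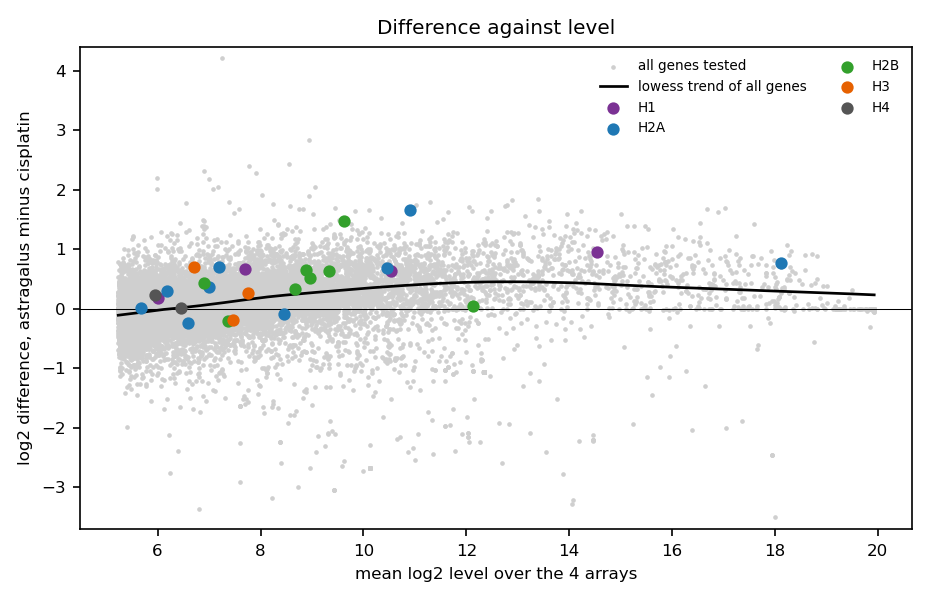
Log2 difference of astragalus minus cisplatin (vertical axis) against the mean log2 level over the 4 arrays (horizontal axis) for all 17195 genes tested (grey) and the 26 histone genes by class (colours), with the lowess trend of all genes as a line. Most histone points lie above the line, Hist1h2ak and Hist1h2bk furthest. With the trend fitted on the mean of the 2 arrays compared, 6 of 26 lay below it.

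Electro-acupuncture set against cisplatin showed no common direction. The median was 0.03, against 0.02 over all genes, with 15 genes higher, against 52.5% of all genes, 9 lower, against 44.5%, and 2 equal. Median centring turned it to -0.02. Hist1h3c was the 1 gene beyond 2-fold, lower, where 2.59% of all genes were called lower and 1.33% higher. By class the single genes had an H2B median of 0.36 and an H3 median of -0.71 over 3 genes, and both kept their direction under the 3 scalings. The clusters that list several genes of these classes had smaller medians, 0.01 over 8 H2B clusters and -0.09 over 7 H3 clusters, of which 5 were lower. Median centring turned the H2B cluster median to -0.04, and quantile normalization put the H3 cluster median at 0.00. As deposited, the 4 clusters that list only H3.2 genes, as Hist1h3c and Hist1h3f are, lay at -0.42 to -0.05. The 3 clusters of H3.1 genes lay at -0.14 to 0.74. That grouping was made after the values were seen. Hist1h2bk and Hist1h2bb were the members with the largest excess of electro-acupuncture, 0.98 and 0.80, and after Hist1h3c the lowest were Hist1h3f at -0.71 and Hist2h2bb at -0.56.

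Between astragalus and electro-acupuncture, 22 of 26 were higher with astragalus, against 57.5% of all genes, and 4 lower, against 40.2%, with a median of 0.40, against 0.06. Hist1h3c, Hist1h1a and Hist1h2ak were at least 2-fold higher, where 0.657% of all genes were, and none 2-fold lower, against 0.872%. Hist1h1a, at 0.98 and 0.96, and Hist1h2ak, at 0.89 and 0.80, were under 2-fold after quantile normalization and without the level trend, and Hist1h3c stayed past it at 1.22 in both. The 6 comparisons share arrays, so their differences are not separate evidence of one another.

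**Figure D4:**
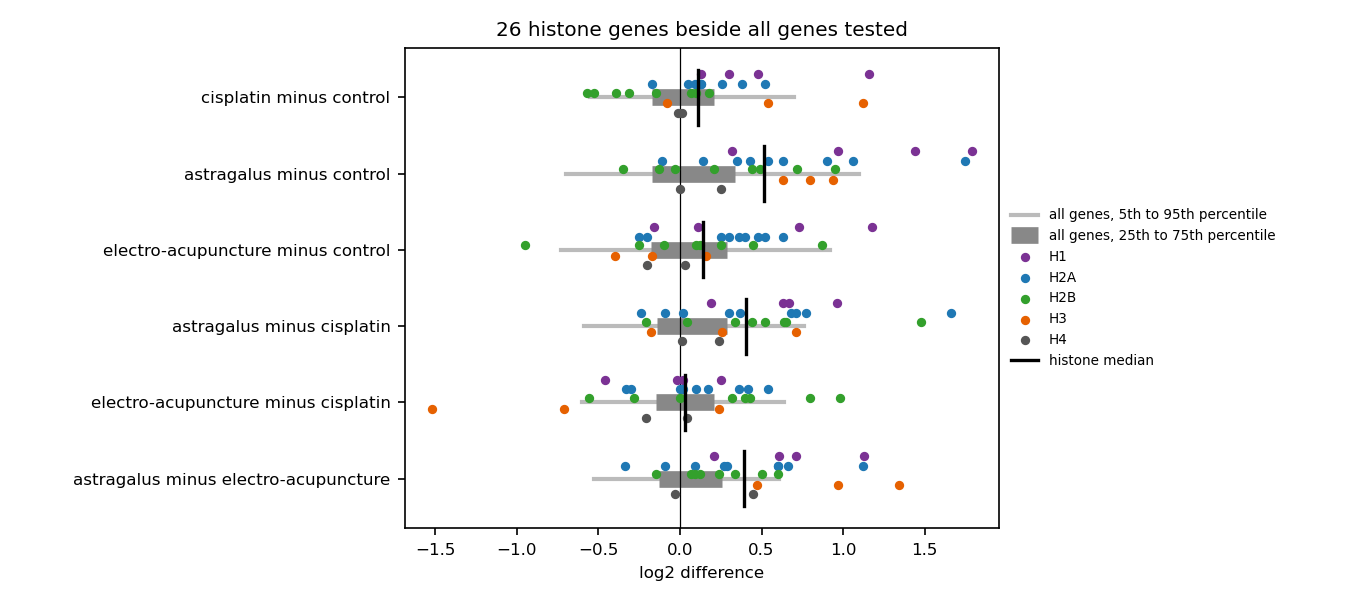
Log2 difference (horizontal axis) of each of 26 histone genes in the 6 comparisons, coloured by class, with the median of the 26 as a black bar and the 5th to 95th and 25th to 75th percentiles of all 17195 genes tested in light and dark grey. The black bar lies at 0.52, 0.41 and 0.40 in the 3 comparisons that have astragalus on top and at 0.11, 0.14 and 0.03 in the other 3.

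By position, 21 of the 27 genes lie on chromosome 13 in 2 stretches more than 1000000 bases apart, and 6 on chromosome 3. The first stretch holds 7 genes, among them Hist1h2ak, Hist1h1b and Hist1h2bk. The second holds 13 above the floor and Hist1h1t. Astragalus minus cisplatin had a median of 0.64 in the first stretch, 0.44 in the second and 0.34 on chromosome 3. Electro-acupuncture minus cisplatin had 0.36, 0.02 and -0.14 in the same order. With 6 to 13 genes each and H1, H2A and H2B mixed unevenly among them, the stretches were not tested against each other.

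The 36 clusters that list several histone genes gave a partly different picture. Of them 21 were highest on the astragalus array alone, or 58.3%, against 34.5% of all genes tested, and 18 of 36 were lowest on the control array alone, against 32.5%. Astragalus exceeded control in 29 of 36, against 55.3% of all genes, with a median of 0.30, against 0.05. At least 2-fold higher were 5 clusters, against 6.14% of all genes. Astragalus exceeded cisplatin in 26, against 56.8% of all genes, with 9 lower and 1 equal. The 7 H3 clusters were all higher with astragalus than in control, with a median of 0.82. Of these, 3 clusters that list the H3.1 genes Hist1h3a, Hist1h3g, Hist1h3h and Hist1h3i were 0.91 to 1.00 above cisplatin, and the 4 that list H3.2 genes -0.20 to 0.74. That grouping was made after the values were seen and gets no test.

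The 11 H4 clusters, each listing the same 13 H4 genes, did not share the excess of astragalus over control. Its median was 0.01, with 6 higher and 5 lower, and it turned to -0.24 with quantile normalization and -0.41 without the level trend. Against cisplatin, electro-acupuncture was lower in 10 of 11, with a median of -0.43, where 44.5% of all genes were lower. Against control it was lower in 9 of 11, with a median of -0.31, where 44.0% of all genes were, and both directions were kept under the 3 scalings. The 8 H2B clusters included 2 near the ceiling, between 19.25 and 19.89, which leaves little room for differences. An H2B cluster that lists Hist1h2bg, Hist1h2be and Hist1h2bc read 12.61 on the cisplatin, 13.42 on the astragalus, 13.78 on the electro-acupuncture and 12.05 on the control array. It was the 1 cluster in which electro-acupuncture was more than 2-fold above both cisplatin (1.17) and control (1.73). These clusters list overlapping sets of genes, so their counts are not counts of independent genes.

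Genes that switch histone transcription on differed little. NPAT's gene Npat read 8.65 on the cisplatin, 8.93 on the astragalus, 8.77 on the electro-acupuncture and 8.66 on the control array. Hinfp, whose product binds H4 promoters, read 8.38 on the cisplatin, 8.49 on the astragalus, 8.24 on the electro-acupuncture and 8.68 on the control array. For Casp8ap2 (FLASH, a protein of the histone locus body) the levels were 8.66 on the cisplatin, 9.10 on the astragalus, 8.99 on the electro-acupuncture and 9.07 on the control array. All 10 measured genes of this list of 11 were higher with astragalus than with cisplatin, by 0.07 to 0.55, with a median of 0.24. Such counts, here and in the lists below, stand beside 56.8% of all genes and 70.6% of those with a mean of at least 6.63. None of the 10 reached 1.5-fold. The excess was 0.06 after quantile normalization and 0.01 without the level trend, with 5 of 10 higher. Creb1 and Gtf2b, a transcription factor and a general initiation factor, had the widest ranges, 0.55 and 0.51. Pou2f1, which encodes Oct-1, had no cluster of its own.

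The genes that form and stabilise the stem-loop end also differed little. Slbp read 9.63 on the cisplatin, 9.99 on the astragalus, 9.76 on the electro-acupuncture and 9.77 on the control array. The U7 subunit gene Lsm11 read 5.90 on the cisplatin, 6.16 on the astragalus, 6.14 on the electro-acupuncture and 6.31 on the control array. Lsm10, of the other U7-specific subunit, lay between 5.25 and 5.39 on all 4 arrays, near the floor. Zfp473, a U7-bound zinc finger gene, was below the floor, at 5.24 on the cisplatin, 5.13 on the astragalus, 5.20 on the electro-acupuncture and 5.09 on the control array, and Rnu7, the U7 RNA itself, had no cluster of its own. Of 16 genes above the floor 13 were higher with astragalus than with cisplatin, with a median of 0.23, and none of them differed 2-fold in any comparison. Cpsf2, a subunit of the cleavage complex, had the widest range, at 10.16 on the cisplatin, 10.92 on the astragalus, 10.71 on the electro-acupuncture and 10.24 on the control array. Cpsf3, the endonuclease of that complex, followed with 8.54 on the cisplatin, 8.99 on the astragalus, 8.67 on the electro-acupuncture and 8.33 on the control array. Both were highest with astragalus.

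Replacement histones are made outside S phase too, and most carry poly(A) tails. H2az2 (H2afv), an H2A.Z gene, was the 1 list member beyond 2-fold. It read 9.16 on the cisplatin, 10.20 on the astragalus, 9.76 on the electro-acupuncture and 10.49 on the control array, a difference of -1.33 for cisplatin minus control, and astragalus was 2.06-fold above cisplatin. No replication-dependent member lay as far below control with cisplatin. H2ax, whose protein is phosphorylated at DNA breaks, read 13.01 on the cisplatin, 13.83 on the astragalus, 12.93 on the electro-acupuncture and 13.09 on the control array. All 6 replacement genes above the floor were higher with astragalus than with cisplatin, with a median of 0.48, and 4 of 6 were without the level trend.

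Histone chaperones hand histones to DNA. Nap1l1, a chaperone of H2A and H2B, read 14.48 on the cisplatin, 15.14 on the astragalus, 15.03 on the electro-acupuncture and 14.02 on the control array, 2.17-fold and 2.01-fold above control with astragalus and electro-acupuncture. Mcm2, a helicase subunit that also binds H3 and H4, read 8.69 on the cisplatin, 9.53 on the astragalus, 8.99 on the electro-acupuncture and 8.57 on the control array. Of 21 chaperone genes 17 were higher with astragalus than with cisplatin, with a median of 0.21, which was 0.03 after quantile normalization and 0.02 without the level trend.

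Among S phase genes the median excess of astragalus over cisplatin was above that of the histone genes. All 19 above the floor were higher with astragalus than with cisplatin, against 56.8% of all genes, with a median of 0.76. Rrm1, of the ribonucleotide reductase that makes DNA building blocks, read 12.07 on the cisplatin, 13.18 on the astragalus, 12.64 on the electro-acupuncture and 12.14 on the control array. Rrm2, of the same enzyme, read 11.86 on the cisplatin, 12.83 on the astragalus, 12.14 on the electro-acupuncture and 11.71 on the control array. Both were more than 2-fold above control with astragalus. With electro-acupuncture 17 of 19 were above cisplatin, with a median of 0.33, where the histone median was 0.03. Cisplatin and control differed by a median of -0.03, with 7 higher and 12 lower. The medians of astragalus minus cisplatin were 0.56 after quantile normalization and 0.40 without the level trend, and the histone medians under the same scalings were 0.30 and 0.27. Mcm2 belongs to both this list and the chaperone list.

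Mitosis genes stood lower on the cisplatin array than the histone genes did. In that comparison with control 11 of 13 were lower and 1 higher, with a median of -0.36, while 18 of 26 histone genes were higher. All 13 were higher with astragalus than with cisplatin, against 56.8% of all genes, with a median of 0.97. At least 2-fold higher were 5, against 2.00% of all genes. These were Ube2c (2.62-fold), Kif11 (2.46-fold), Cdk1 (2.31-fold), Bub1b (2.19-fold) and Top2a (2.01-fold), which act in protein degradation, the spindle, mitotic entry, the spindle checkpoint and DNA untangling. Ube2c read 14.95 on the cisplatin, 16.34 on the astragalus, 15.58 on the electro-acupuncture and 15.00 on the control array. With Ccnb2, a mitotic cyclin, it was more than 2-fold above control with astragalus. The direction of both medians was kept under the 3 scalings.

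**Figure D5:**
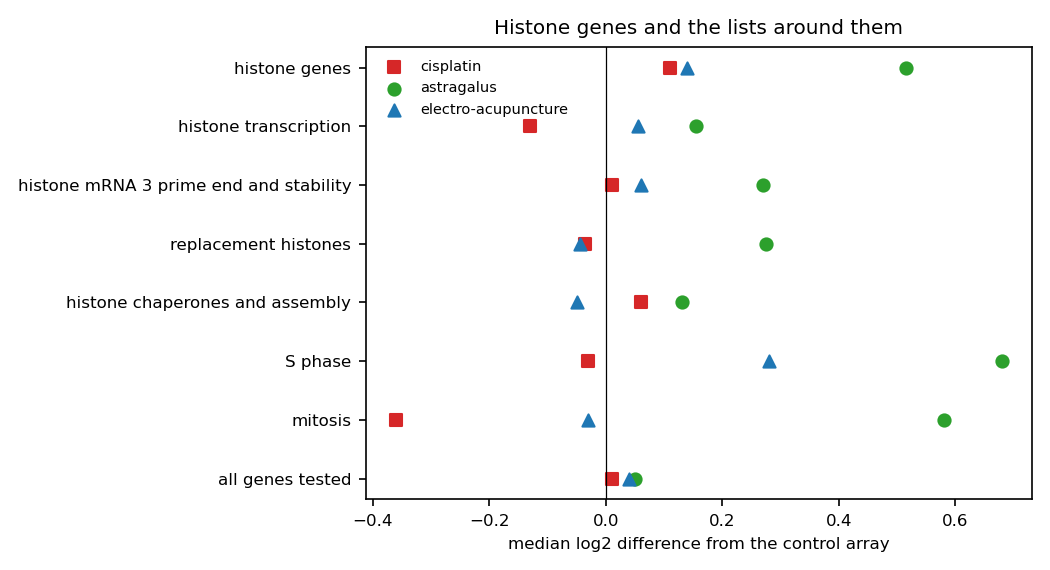
Median log2 difference from the control array (horizontal axis) for the histone genes, 6 related gene lists and all genes tested, with squares for cisplatin, circles for astragalus and triangles for electro-acupuncture. The histone circle lies at 0.52, between the mitosis and S phase circles at 0.58 and 0.68 and those of the other lists. Quantile normalization kept that order, with 0.41 for histone, 0.45 for mitosis and 0.46 for S phase genes. Without the level trend it was reversed, at 0.35, 0.33 and 0.23. The cisplatin squares lie at 0.11 for histone genes and -0.36 for mitosis genes.

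Markers of marrow cell types differed between the arrays as well. The summed log2 level of the 9 erythroid markers was 107.8 on the cisplatin, 114.2 on the astragalus, 109.8 on the electro-acupuncture and 108.8 on the control array. For the 10 neutrophil markers it was 147.7 on the cisplatin, 153.1 on the astragalus, 150.4 on the electro-acupuncture and 144.5 on the control array, with S100a8 and S100a9 at the ceiling on all 4. As deposited, both sums were highest on the astragalus array, as most histone genes were. The neutrophil markers did not move as 1 group between cisplatin and control, with 5 higher, 2 lower (Ltf and Camp) and 3 equal. The neutrophil median of astragalus minus electro-acupuncture, 0.16 as deposited, was 0.00 after quantile normalization and -0.07 without the level trend. The erythroid median, 0.50 as deposited, was 0.33 and 0.30 under these scalings. The 9 measured of 10 early B cell markers summed to 67.1 on the cisplatin, 70.4 on the astragalus, 70.1 on the electro-acupuncture and 76.0 on the control array. The 5 measured of 6 megakaryocyte markers summed to 64.8, 65.1 and 65.0 on the cisplatin, astragalus and electro-acupuncture arrays and 56.3 on the control array. For the 7 measured of 8 bone matrix markers the sums were 68.4, 60.4 and 56.3 on those treated arrays and 50.2 on the control array. The early B cell sum was highest in control and the other 2 were lowest there. No marker was listed at 0. The part of these cell types in the histone values was not tested.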

How the data were processed

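Total RNA of mouse bone marrow was measured on 4 arrays, 1 per group, and grouped by the labels' source names. The authors deposited log2 values, 1 per transcript cluster and array, made with Affymetrix Expression Console, per the submitters' processing notes. Neither its version nor the summary method or normalization is stated there. The log2 scale was inferred from the range, 2.70 to a common ceiling of 19.93. The arrays have no replicates, and their number limits the precision.

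Of 65956 clusters 32750 are in the platform's gene table, and 31258 of these list 1 gene. Symbols were updated through RefSeq. A gene with several clusters took the one with the highest mean, and a gene was tested when its 4-array mean reached 5.235. Of the histone genes 2 pseudogenes were left out. Promoter sequences are those of a RefSeq table on GRCm38.p6.

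Differences of log2 values were taken between arrays with pandas 2.3.3 and numpy 2.4.6. No test was run, and genes were counted at 2-fold. The differences and the lowess step were tested on simulated arrays of equal spread and without a level trend. That check does not cover the wider spread of the astragalus array. Alternatives were quantile normalization, median centring, removal of the level trend by lowess with a fraction of 0.3 (statsmodels 0.14.6), no floor, a floor of 6.63 (the 75th percentile), the mean of a gene's clusters, leaving out testis histone genes, adding the clusters of several genes, and a 1.5-fold threshold. The genes named were those with the largest differences in each comparison, the widest and narrowest ranges in each class, testis genes, members with several clusters, and in each list the genes at 2-fold, the 2 with the widest range and a fixed set of histone regulators. The other members were added so that all 27 are given. The members and the lists were chosen with earlier results of these data known.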

Additional observations from a re-analysis of the deposited data

How the results depend on the processing

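With 1 array per group, no replicate could be left out and no error can be given. No paired analysis was possible because each group has 1 array and all labels carry the same number. The count of histone genes at 2-fold depended most on the threshold. At 1.5-fold in either direction it was, of 26 genes, 11 for astragalus minus cisplatin (2 at 2-fold, and 14.4% of all genes at 1.5-fold) and 12 for astragalus minus control (4, and 21.1%). It was 10 for astragalus minus electro-acupuncture (3, and 9.86%), 4 for electro-acupuncture minus cisplatin (1, and 11.3%) and 5 for electro-acupuncture minus control (1, and 18.0%). Genes at least 1.5-fold higher with astragalus were fewer under quantile normalization and without the level trend. They were 6 and 4 against cisplatin, 11 and 8 against control and 6 and 5 against electro-acupuncture. Shares of all genes at 1.5-fold were not taken under these scalings. For astragalus minus control the 2-fold count was 8 with median centring, 2 without the level trend and 9 of 62 with the clusters of several genes added. Of all genes 7.76%, 3.15% and 6.15% were 2-fold higher under these settings, and 6.14% as deposited. Astragalus minus electro-acupuncture gave 1 with quantile normalization and 1 without the level trend, both higher, against 0.337% and 0.302% of all genes. Electro-acupuncture minus cisplatin gave 2 with quantile normalization, 1 higher and 1 lower, against 1.39% and 2.59% of all genes. With the clusters of several genes it gave 2 of 62, 1 higher and 1 lower, against 1.33% and 2.58%. Electro-acupuncture minus control gave 2 without the level trend, 1 higher and 1 lower, against 3.27% and 3.33% of all genes. With those clusters it gave 2 of 62, both higher, against 4.15%. The count for cisplatin minus control was 2 under every alternative. Over these settings 1.22% to 3.44% of all genes were 2-fold higher, and 11.4% differed at 1.5-fold.

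The median of astragalus minus cisplatin was 0.41 as deposited. It was 0.30 with quantile normalization, 0.52 with median centring, 0.27 without the level trend, 0.64 with the floor at the 75th percentile and 0.26 with the clusters of several genes. Under the same 5 settings astragalus minus control, 0.52 as deposited, gave 0.41, 0.64, 0.35, 0.68 and 0.39. Astragalus minus electro-acupuncture, 0.40 as deposited, gave 0.27, 0.56 and 0.22 under the first 3. The higher floor left 20 histone genes, and put electro-acupuncture minus cisplatin at 0.14 and electro-acupuncture minus control at 0.25. Over all settings cisplatin minus control lay between 0.09 and 0.14, electro-acupuncture minus control between 0.09 and 0.25, and electro-acupuncture minus cisplatin between -0.02 and 0.14. Median centring moved the median of all genes to 0.17 in astragalus minus control and in astragalus minus cisplatin and to 0.22 in astragalus minus electro-acupuncture. It raised the share of all genes higher with astragalus than with cisplatin to 71.5%, where it was 56.8% as deposited, and the share of histone genes to 23 of 26. The histone median stood 0.20 to 0.46 above that of all genes in astragalus minus cisplatin under all settings. No floor, the mean of clusters and leaving out the testis genes kept every count within 1.5 times and every median within 0.1. Causes of these shifts were not tested.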
